A study of Mus musculus with 9 samples.

Results

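The genes described here are the VEGF ligands Vegfa, Vegfb, Vegfc and Pgf, the receptor kinases Flt1 and Kdr, and the neuropilin co-receptors Nrp1 and Nrp2. They were chosen by name and are 8 of the 27998 genes in a single-cell count matrix. The matrix came from 1 library, made with the 10x Genomics assay, of cells from the ascites with the genotype B6_WT, in a model named ID8_def29_vegf. Ascites is the fluid that collects in the peritoneal cavity, and ID8 is a mouse ovarian surface epithelial cancer line. The name of the line records added Def29, a beta-defensin, and Vegf. The labels do not say how many mice were pooled or whether any treatment was given, and the library has no replicate. Transcripts of an added Vegf copy and of the mouse gene cannot be told apart in these counts. Another 8 libraries of the series are bulk RNA from ID8-Def29/Vegf cells in culture, 4 of them with vehicle and 4 after 12 h of deferiprone, an iron chelator. They were not used here because no column name of their table matches a sample label.

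Vegfa is the main growth factor for blood vessels. It binds the receptor tyrosine kinases Flt1 (VEGFR-1) and Kdr (VEGFR-2), of which Kdr carries most of the signal in endothelial cells while Flt1 binds the ligand tightly and signals weakly. Vegfb and Pgf bind Flt1, Vegfc acts mainly through Flt4 on lymphatic vessels, and Nrp1 and Nrp2 lack a kinase and bind both VEGF isoforms and class 3 semaphorins. Vegfa is also a textbook target of the hypoxia-inducible factors, and it is also known as vascular permeability factor, a name that refers to leakage of fluid from vessels, as in ascites.

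Barcodes were kept with at least 500 unique molecular identifiers (UMIs, 1 per captured transcript), at least 200 genes and at most 15% mitochondrial UMIs, which left 6442. A barcode was called tumour-like with 3 or more UMIs of Krt8, Krt18, Krt19, Wt1 and Upk3b together and at most 1 of C1qa, C1qb and C1qc, and macrophage with 3 or more C1q UMIs and at most 1 of the first set. This gave 3660 tumour-like cells (19994488 UMIs, median 5007 per cell), 1076 macrophages (1905866 UMIs, median 1640) and 1706 other cells (2917852 UMIs, median 1177). Just outside and just inside the limits lay 278 cells with 2 and 269 with 3 UMIs of the keratin set, and 31 cells with 2 and 34 with 3 C1q UMIs. Csf1r, a macrophage marker that the rule did not use, was at 369.4 CPM (the count rate over all UMIs of the class) in macrophages and 1.40 CPM in tumour-like cells. Of the epithelial and mesothelial markers outside the rule, Upk1b was at 41.1 CPM in tumour-like cells and 3.15 CPM in macrophages, Krt7 at 24.0 and 2.62 CPM, and Msln at 10.4 and 0.525 CPM, while Epcam was at 1.20 CPM in tumour-like cells. Of the listed fibroblast markers, Dcn was at 359.3 CPM in tumour-like cells, and the rest were much lower. Mgp was at 19.8, Col1a2 at 6.30, Col3a1 at 4.90 and Col1a1 at 2.75 CPM. Of 6 endothelial markers, Cdh5, Cldn5, Emcn and Tie1 had no UMI in tumour-like cells or macrophages, and the 6 summed to 2.501 CPM in tumour-like cells, 3.67 CPM in macrophages and 9.25 CPM in the other cells.

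Start regions of the ligands Vegfa and Vegfb and of the receptor kinases Flt1 and Kdr are shown first. Their levels are compared between groups of tumour-like cells below. Those of the neuropilins, Vegfc and Pgf are not shown. On GRCm38 (GENCODE M21) Vegfa lies at chr17:46016993-46032369, Vegfb at chr19:6982473-6987651, Flt1 at chr5:147561604-147726011 and Kdr at chr5:75932827-75978458, all 4 protein-coding and on the minus strand. Nrp1 lies at chr8:128358604-128503363 and Nrp2 at chr1:62703285-62818695, both on the plus strand. The sequences are the 250 bases before the RefSeq transcript start (GRCm38.p6), 5′ to 3′ on the gene's strand. They cover chr17:46032378-46032627 for Vegfa, chr19:6987652-6987901 for Vegfb, chr5:147726012-147726261 for Flt1 and chr5:75978456-75978705 for Kdr. Capitals mark ACGTG and GCGTG, the core letters of hypoxia-response elements, and GGGCGG, the core of GC boxes, on either strand.
Vegfa: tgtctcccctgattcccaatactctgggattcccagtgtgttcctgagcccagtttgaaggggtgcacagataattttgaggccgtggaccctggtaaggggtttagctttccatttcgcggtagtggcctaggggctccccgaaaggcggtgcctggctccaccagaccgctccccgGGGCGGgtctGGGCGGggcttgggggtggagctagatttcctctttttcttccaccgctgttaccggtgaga
Vegfb: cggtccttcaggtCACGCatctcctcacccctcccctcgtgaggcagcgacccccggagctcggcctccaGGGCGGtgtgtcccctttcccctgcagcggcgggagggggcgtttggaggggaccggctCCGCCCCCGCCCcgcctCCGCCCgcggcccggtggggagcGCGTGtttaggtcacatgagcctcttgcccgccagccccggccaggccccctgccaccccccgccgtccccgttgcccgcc
Flt1: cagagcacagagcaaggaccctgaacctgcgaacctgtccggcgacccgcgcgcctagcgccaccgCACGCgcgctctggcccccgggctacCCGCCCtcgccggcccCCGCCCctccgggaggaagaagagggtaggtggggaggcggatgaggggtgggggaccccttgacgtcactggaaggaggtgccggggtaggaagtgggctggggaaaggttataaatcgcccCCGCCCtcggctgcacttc
Kdr: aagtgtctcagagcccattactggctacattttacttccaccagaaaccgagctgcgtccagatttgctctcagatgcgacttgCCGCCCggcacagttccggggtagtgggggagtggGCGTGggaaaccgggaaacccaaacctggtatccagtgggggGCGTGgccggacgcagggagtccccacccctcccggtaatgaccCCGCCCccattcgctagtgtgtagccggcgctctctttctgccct
The Vegfa window held 2 matches to GGGCGG and none to ACGTG or GCGTG. A second RefSeq start of Vegfa lies inside the gene, and its window (chr17:46025164-46025413, not shown) held 1 match to each of the 3 motifs. The Vegfb window held 4 matches to GGGCGG and 2 to GCGTG, that of Flt1 3 and 1, and that of Kdr 2 and 2. Among 32851 RefSeq windows of this length, 32.7% held GGGCGG and 38.6% held ACGTG or GCGTG. Their median content of G and C was 52.4%, and the windows shown had 59.2% (Vegfa), 76.4% (Vegfb), 70.4% (Flt1) and 61.6% (Kdr). The shares were not adjusted for this. These matches describe letters in these windows and were not tested for function.

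By CPM, Vegfa and Vegfb were higher in tumour-like cells than in macrophages, and Nrp1 and Nrp2 were highest in macrophages. Vegfa stood at 31.7 CPM (95% Poisson interval 29.2 to 34.2, 633 UMIs) in tumour-like cells, 13.6 CPM (8.91 to 19.99, 26 UMIs) in macrophages and 27.8 CPM (22.1 to 34.5, 81 UMIs) in the other cells. Tumour-like cells and the other cells thus had overlapping intervals, and macrophages lay below both. Of the 81 Vegfa UMIs of the other cells, 45 were in 439 cells that fell in the tumour-like clusters described below without meeting the rule (38.7 CPM, 28.2 to 51.8), and the remaining 1267 cells had 36 (20.5 CPM, 14.4 to 28.4). Vegfb, the ligand of Flt1, stood at 32.9 CPM (30.4 to 35.5, 657 UMIs) in tumour-like cells, 11.5 CPM (7.23 to 17.5, 22 UMIs) in macrophages and 13.4 CPM (9.505 to 18.3, 39 UMIs) in the other cells. For Vegfb it was the macrophages and the other cells that could not be separated. Vegfc had 1 UMI and Pgf, placental growth factor, 4 UMIs in tumour-like cells, and both had 0 in macrophages and in the other cells. A count of 0, taken as up to 3 counts, allows up to 1.57 CPM in macrophages and 1.03 CPM in the other cells, so low levels of Vegfc and Pgf there were not detectable at this depth.

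Flt1 and Kdr were low everywhere. Flt1 had 118 UMIs in tumour-like cells (5.90 CPM, 4.88 to 7.07), 12 UMIs in the other cells (4.11 CPM, 2.13 to 7.18) and 1 UMI in macrophages (0.525 CPM, 0.0133 to 2.92). Kdr had 68 UMIs in tumour-like cells (3.401 CPM, 2.64 to 4.31), 5 in the other cells (1.71 CPM, 0.556 to 3.999) and 0 in macrophages. The intervals of tumour-like and other cells overlapped for both receptor kinases, but all 5 Kdr UMIs and 7 of the 12 Flt1 UMIs of the other cells were in cells of the tumour-like clusters. Both are textbook receptors of endothelial cells. In the tumour-like class 4 of the 6 endothelial markers had no UMI, while Pecam1 had 42 (2.10 CPM) and Vwf 8 (0.400 CPM). The part of endothelial cells in the Flt1 and Kdr counts was not tested.

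Nrp1 had the largest ratio between tumour-like cells and macrophages among the members seen in both. It stood at 135.4 CPM (119.4 to 152.9, 258 UMIs) in macrophages, 16.8 CPM (12.4 to 22.2, 49 UMIs) in the other cells and 5.30 CPM (4.34 to 6.41, 106 UMIs) in tumour-like cells. Nrp2 followed the same order, with 31.0 CPM (23.6 to 39.9, 59 UMIs) in macrophages, 6.51 CPM (3.92 to 10.2, 19 UMIs) in the other cells and 2.75 CPM (2.07 to 3.58, 55 UMIs) in tumour-like cells. For both neuropilins the 3 intervals were apart.

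**Figure D1:**
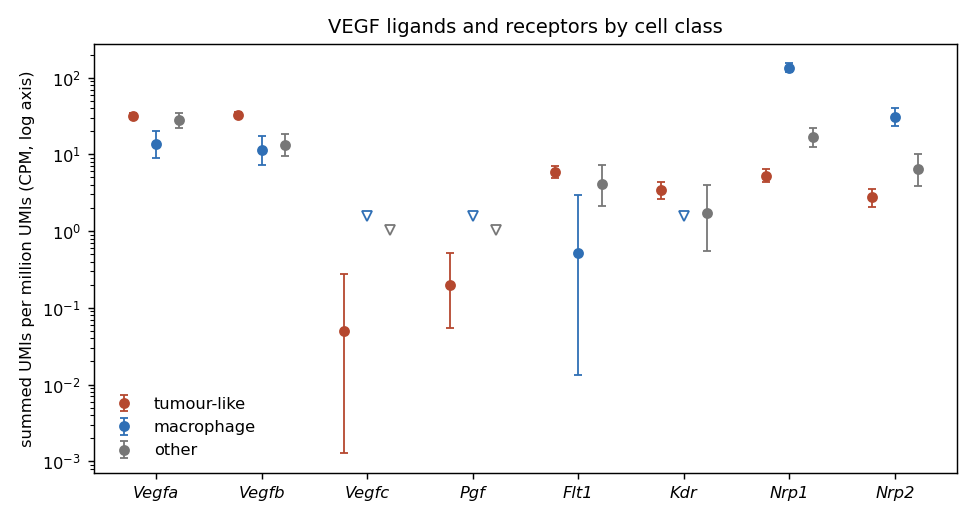
Summed UMIs as CPM (log axis) of the 8 genes in tumour-like cells, macrophages and other cells of 1 library, with exact 95% Poisson intervals as bars. Open triangles mark the limit of 3 counts where no UMI was counted. Nrp1 at 135.4 CPM and Nrp2 at 31.0 CPM in macrophages stand above the other classes.

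With 1 library there is no test between classes, and ratios carry only counting error. Tumour-like cells had 2.32-fold more Vegfa per UMI than macrophages (95% interval 1.57 to 3.58) and 2.85-fold more Vegfb (1.86 to 4.57). These ratios were not matched for mitochondrial share, which differed between the classes as given below. The Flt1 ratio of 11.2 (1.98 to 448) rests on 1 macrophage UMI. Kdr was 2.16-fold higher with macrophages set at the floor of 3 counts, and its exact 95% lower limit was 1.71. In the other direction, macrophages had 25.5-fold more Nrp1 (20.3 to 32.3) and 11.3-fold more Nrp2 (7.66 to 16.6). Of the 8 genes, 6 had the 50 UMIs over both classes needed for comparison, and Vegfc and Pgf did not. Among these 6, 4 were 2-fold or more higher in tumour-like cells, against 36.7% of the 10385 genes compared, and 2 were 2-fold or more higher in macrophages, against 11.8%. The 4 include Kdr, counted by its ratio at the floor, with an exact lower limit under 2-fold. That ratio fell to 1.67 under a stricter class rule and to 1.64 without the macrophages of the S100a9 cluster described below, which leaves 3 of 6. The median gene was itself 1.48-fold higher in tumour-like cells (log2 0.57). Set against that median gene, Vegfa was 1.56-fold and Vegfb 1.92-fold higher in tumour-like cells, both under 2-fold. Kdr at the same floor was 1.46-fold higher. The neuropilins were then 37.9-fold (Nrp1) and 16.7-fold (Nrp2) higher in macrophages. With this centring the calls over all genes split 55.6% towards tumour-like cells, against 75.7% without it.

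Free RNA in the fluid can put UMIs into droplets of cells that do not make a transcript. From markers foreign to each class, its share was put at 5.70% of UMIs in tumour-like cells and 12.6% in macrophages with the profile of barcodes of 1 to 50 UMIs, and at 8.78% and 11.1% with barcodes of 100 to 200 UMIs. It would account for 4.95 or 1.88 of the 13.6 CPM of Vegfa in macrophages, and for 2.89 or 2.15 of the 11.5 CPM of Vegfb. After subtraction the ratio of tumour-like cells over macrophages was 3.38 or 2.56 for Vegfa and 3.64 or 3.32 for Vegfb. The first value of each pair rests on a profile with only 12 UMIs of Vegfa and 7 of Vegfb. The profile behind the second had 132 and 151.

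Per cell, Vegfa was seen in 531 tumour-like cells (14.5%, Clopper-Pearson 95% interval 13.4 to 15.7%) and in 25 macrophages (2.32%, 1.51 to 3.41%). Tumour-like cells had more UMIs each, so each cell was also thinned to 1000 UMIs, which left out 50 tumour-like cells and 126 macrophages. The Vegfa shares were then 2.71% (2.21 to 3.30%) and 1.68% (0.966 to 2.72%), with overlapping intervals. For Vegfb the shares of 15.6% and 1.95% became 2.63% (2.13 to 3.21%) and 1.16% (0.579 to 2.06%). Nrp1 was seen in 20.3% of macrophages (17.9 to 22.8%, 218 cells) and 2.81% of tumour-like cells, and after thinning in 12.2% (10.2 to 14.5%) and 0.582% (0.360 to 0.888%). Nrp2 went from 5.30% and 1.42% to 2.74% (1.80 to 3.98%) and 0.332% (0.172 to 0.580%). At equal depth the intervals of the classes were apart for Nrp1, Nrp2 and Vegfb and overlapped for Vegfa. For Vegfb they were apart only narrowly, with 11 macrophages. The thinning was 1 random draw, and other draws were not tried.

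At least 1 ligand UMI was present in 1005 tumour-like cells (27.5%) and 44 macrophages (4.09%). At least 1 UMI of a receptor kinase or neuropilin was present in 308 (8.42%) and 259 (24.1%). These shares were not matched for depth. As CPM, the ligands summed to 64.8 in tumour-like cells and 25.2 in macrophages, and the receptors to 17.4 and 166.9. Of the 318 receptor UMIs in macrophages, Nrp1 had 258, Nrp2 59, Flt1 1 and Kdr 0. Flt1 and Kdr met in only 2 tumour-like cells, which is 1.87% of the Flt1-positive cells (0.227 to 6.59%) against 1.75% of the Flt1-negative ones. Among macrophages 17 cells held both neuropilins, or 7.80% of Nrp1-positive cells (4.61 to 12.2%) against 4.66% of Nrp1-negative cells (3.35 to 6.29%), at median depths of 1849 and 1575 UMIs.

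The cells were then grouped by Leiden clustering with the members and the pathway genes left out of the genes that define clusters. Of the 16 clusters, 6 were made up mainly of tumour-like cells and carried no other name, and they held 3477 cells that met the tumour-like rule. Vegfa was nearly flat over them, from 27.0 CPM in the cluster led by Abhd2 to 34.6 CPM in the cluster led by Uchl1, with overlapping intervals throughout. Vegfb was highest, at 50.5 CPM, in the cluster led by Top2a, Lockd and Birc5, of which Top2a and Birc5 are genes of dividing cells. That was 1.60-fold its level in the other 5 clusters together (1.27 to 1.99), whose values ran from 27.1 to 36.2 CPM.

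The receptor kinases were spread unevenly, and over different clusters. Of 65 Kdr UMIs, 38 lay in the cluster led by Hes1, a Notch target, and by the complement genes C3 and Serping1, at 8.19 CPM. This was 4.42-fold the level in the other 5 clusters (2.63 to 7.54), which ranged from 0.537 to 3.26 CPM. Flt1 was at 3.02 CPM in that cluster and highest in the clusters led by Pam (10.2 CPM, 37 UMIs) and Uchl1 (9.01 CPM, 36 UMIs). Flt1 in the cluster led by Pam was 2.16-fold the level in the rest (1.41 to 3.24), and in the cluster led by the beta-defensin Defb19 it was lowest, at 1.67 CPM with 6 UMIs. Nrp2 was highest in the Uchl1 cluster at 5.26 CPM, 2.76-fold the rest (1.498 to 5.02), but this did not hold at the finer division below. Nrp1 ranged from 3.06 to 6.98 CPM.

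**Figure D2:**
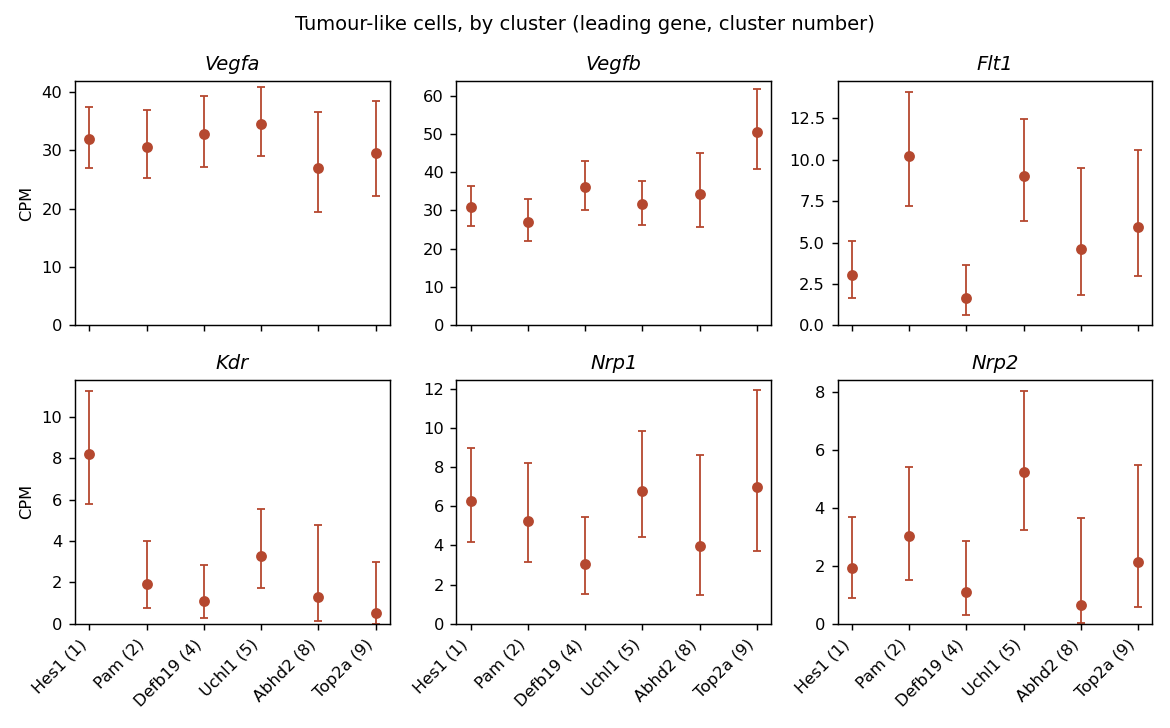
CPM of 6 members in tumour-like cells of the 6 tumour-like clusters, named by leading gene and cluster number, with exact 95% Poisson intervals. Each panel has its own axis from 0. Vegfa stays between 27.0 and 34.6 CPM, while Kdr reaches 8.19 CPM in the Hes1 cluster and Flt1 10.2 CPM in the Pam cluster.

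A finer division of the cells (Leiden resolution 2) showed a further grouping. A cluster of 226 tumour-like cells led by Tm4sf5, Mgp and Slpi had Flt1 at 19.0 CPM (12.3 to 28.0, 25 UMIs) and Nrp2 at 15.9 CPM (9.87 to 24.4, 21 UMIs), with Vegfa at 22.02 CPM (14.7 to 31.6). The cluster led by Gng13 and Uchl1 then had Nrp2 at 2.22 CPM (0.721 to 5.18, 5 UMIs), and Flt1 at 8.44 CPM. A cluster of 161 cells led by the cell-cycle inhibitor Cdkn1a and by the immediate early gene Fosb had Vegfa at 47.1 CPM (34.4 to 63.1, 45 UMIs). At this resolution Kdr was highest, at 9.11 CPM, in a cluster led by Abcb1b and C3. Mgp is on the list of fibroblast markers, and the part of such cells in the Flt1 and Nrp2 values was not tested.

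Cells that met the macrophage rule lay mainly in 2 clusters, and Nrp1 differed between them. The cluster led by Pf4, Saa3 and Wfdc17 had 159.3 CPM (222 UMIs) and the one led by S100a9, S100a8 and Retnla had 63.7 CPM (29 UMIs), a ratio of 2.502 (1.69 to 3.82). The top 10 genes of the S100a9 cluster were taken over all its 529 cells, of which 340 met the macrophage rule and gave the Nrp1 value. These genes include the listed neutrophil markers S100a8, S100a9 and Camp, the listed monocyte markers Ccr2 and Chil3, and no listed macrophage marker. In the whole macrophage class Camp had 0 UMIs, S100a9 43 and S100a8 194, against 259, 479 and 542 in all cells of neither class. Ccr2 and Chil3 had 317 and 259 UMIs in macrophages, against 163 and 201. Median depth was 1851 UMIs in macrophages of the Pf4 cluster and 1289.5 in those of the S100a9 cluster. By depth alone, Nrp1 was at 98.8, 146.8 and 143.2 CPM in macrophages of low, middle and high UMI count. The Nrp1 difference is one between clusters, and the part of other cell types or of depth in it was not tested. Nrp2 was at 35.9 and 17.6 CPM (ratio 2.04, 0.961 to 4.99) and Vegfa at 12.2 and 19.8 CPM (0.617, 0.260 to 1.57), and neither difference exceeded counting error. Among the cells of neither class, 20 of the 49 Nrp1 UMIs were in the Pf4 cluster (83.8 CPM) and 10 in the conventional dendritic cell 2-like cluster (16.2 CPM, 7.75 to 29.7). Nrp2 had 3 UMIs in 41 migratory dendritic cell-like cells, and Nrp1 had 1 UMI in 22 plasmacytoid dendritic cell-like cells, counts too small for a level. Vegfa had 13 UMIs in the cells of neither class in the S100a9 cluster (43.4 CPM, 23.1 to 74.3).

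In tumour-like cells Vegfa was higher at each higher range of the mitochondrial share of the barcode, and Vegfb showed no such order. As CPM of non-mitochondrial UMIs, Vegfa was 22.3 (17.4 to 28.1) in tumour-like barcodes with up to 2.5% mitochondrial UMIs, 32.8 (29.8 to 36.0) between 2.5 and 5%, 43.5 (35.2 to 53.1) between 5 and 10%, and 66.2 (42.9 to 97.8) between 10 and 15%. The last was 2.97-fold the first (1.81 to 4.75). Vegfb was 28.5, 36.5, 31.6 and 13.2 over the same ranges. The depth of the cells moved as well, with a median of 4456 UMIs in the first range and 1775 in the last, and its part in the result was not tested. By depth alone, Vegfa was 28.6, 26.4 and 35.9 CPM in tumour-like cells of low, middle and high UMI count, at equal cell numbers. Vegfb was 26.6, 29.0 and 37.3 CPM over the same groups, and the Top2a cluster, where it was highest, had the highest median UMI count of the clusters (7068). The part of depth in the Vegfb values was not tested. Macrophages lay mostly in the first mitochondrial range, with 968 of 1076, against 659 of 3660 tumour-like cells. In that range Vegfa in macrophages was 14.0 (8.95 to 20.8), an interval that overlapped that of tumour-like barcodes. Vegfb there was 12.2 (7.57 to 18.7) in macrophages, below the 28.5 (23.0 to 35.0) of tumour-like barcodes. The part of mitochondrial share in the class ratios was not tested. These ranges were chosen after the values had been seen.

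**Figure D3:**
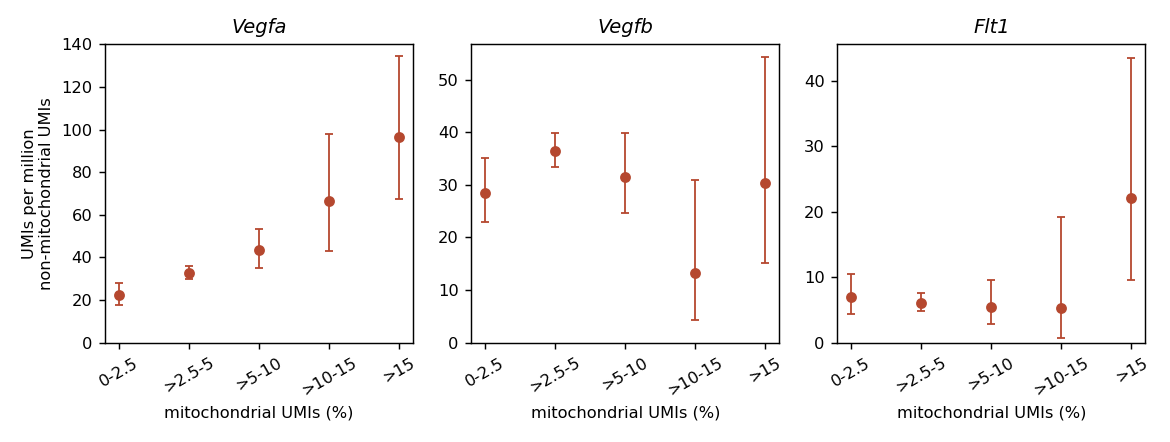
CPM of non-mitochondrial UMIs of Vegfa, Vegfb and Flt1 in barcodes that meet the tumour-like gene sums, by the percent of their UMIs that is mitochondrial, with exact 95% Poisson intervals. The last range, above 15%, was outside the cell filter. Vegfa goes from 22.3 in the first range to 96.6 in the last, and Vegfb lies between 13.2 and 36.5.

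Of 41 further genes of the pathway, 40 were measured and 28 had 50 UMIs or more over both classes. Of these 28, 19 were 2-fold or more higher in tumour-like cells and 2 in macrophages, and 7 were in between, against 36.7% and 11.8% of all genes compared. Their median ratio was 4.41 with genes absent from macrophages set at the floor of 3 counts, and 7.39 with those genes ranked highest, against 1.48 for all genes compared. The semaphorins and plexins use neuropilins as receptors or act beside them. Of 9 compared, 7 were 2-fold or more higher in tumour-like cells, against the same 36.7%, and none in macrophages. Plxnd1 came just under that limit, at 1.99-fold higher in macrophages (1.29 to 2.97). Sema3c, a ligand of both neuropilins, was at 171.5 CPM in tumour-like cells and 14.2 CPM in macrophages (12.1-fold, 8.31 to 18.4). Sema3d was 20.1-fold higher (8.58 to 62.0), and Sema3a, the classic Nrp1 ligand, had 370 UMIs against 1 (35.3-fold, 6.29 to 1397). Plxna4, a plexin that signals with Nrp1, was 27.3-fold higher (10.6 to 100.4). The ligands of the neuropilins and the neuropilins themselves were thus highest in different classes.

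All 4 matrix and proteoglycan genes that bind VEGF were 2-fold or more higher in tumour-like cells, against 36.7% of all genes. Sdc4 was at 665.9 and 89.2 CPM (7.47-fold, 6.42 to 8.74) and Hspg2, perlecan, at 79.2 and 4.20 CPM (18.9-fold, 9.56 to 43.8). Sdc1 and Gpc1 had 1 and 2 macrophage UMIs against 233 and 206 in tumour-like cells. Among growth factors and inhibitors, Pdgfa was 7.32-fold (4.91 to 11.5) and the vessel inhibitor Serpinf1 8.805-fold (4.45 to 20.5) higher in tumour-like cells. The 2 genes higher in macrophages were the vessel inhibitor Thbs1 (42.7-fold, 28.2 to 66.5) and the secreted ribonuclease Ang (35.8-fold, 22.5 to 59.1), both named after their values were seen. Flt4, the receptor of Vegfc, had 102 UMIs in tumour-like cells and 0 in macrophages. Flt4 was 3.24-fold higher with macrophages set at the floor of 3 counts, and its exact lower limit was 2.59. Angpt1, Tek and Tie1 had no UMI in any class, and Angpt2 had 1.

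Of the 8 oxygen-sensing genes, which tie Vegfa to oxygen supply, 4 were 2-fold or more higher in tumour-like cells and 4 were in between, a share near the 36.7% of all genes. Epas1 (HIF-2 alpha) was 5.96-fold (2.87 to 14.9), Hif1an 5.26-fold (2.23 to 16.3), Egln3 2.24-fold (1.38 to 3.89) and Egln1 2.06-fold (1.36 to 3.29) higher in tumour-like cells. Hif1a itself had a ratio of 0.826 (0.638 to 1.08) and Vhl one of 1.13 (0.676 to 2.01). The Egln and Hif1an products are iron-dependent hydroxylases that mark the HIF proteins.

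**Figure D4:**
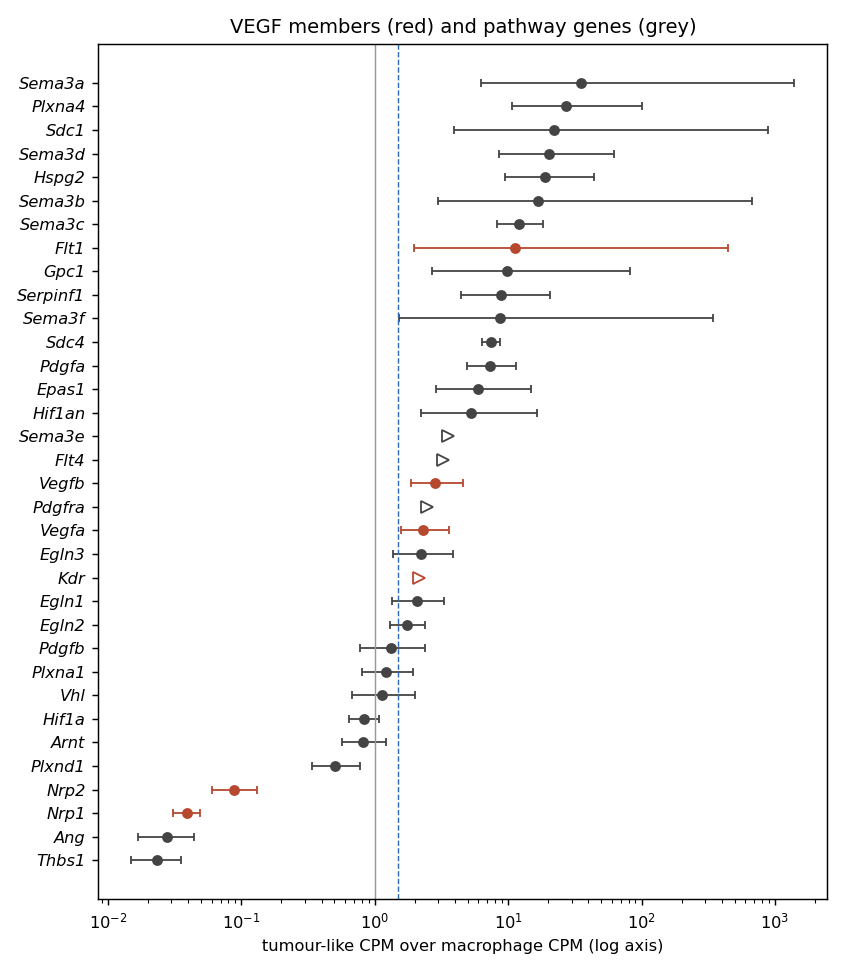
Ratio of tumour-like CPM over macrophage CPM (log axis) for the 6 members (red) and 28 pathway genes (grey) with 50 or more UMIs, with exact 95% intervals. Open triangles are ratios with macrophages set at the floor of 3 counts, for genes with no macrophage UMI. The exact lower limits of these genes lie below those ratios. The grey line is 1 and the dashed line the median gene at 1.48. Nrp1 and Nrp2 lie at the macrophage end with Thbs1 and Ang, and Sema3a and Plxna4 at the other end.

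Over the 16 clusters, which share 1 library and differ in depth, the genes whose levels were most like Vegfa were Pja2 (Pearson r 0.98), Ube2g1 (0.98) and Ring1 (0.96), on log2(CPM + 10) among 9173 genes. For Vegfb they were Rai14, C77080 and Smarcc1 (0.97 to 0.96), and for Flt1 Mdc1, Rab11fip1 and Eif4e2 (0.86 to 0.81). For Nrp1 they were Ccl12, Lilr4b and Ctsb (0.95 to 0.94), and for Nrp2 Il18bp, Fabp5 and Wdr1 (0.95 to 0.90). Kdr had too few UMIs for this comparison. These are descriptions over clusters of very unequal size.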

How the data were processed

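Per the file headers and values, the authors deposited UMI counts per gene and barcode of 1 10x Genomics library, with 35733776 UMIs in 737280 barcodes. Aligner and genome build: not given in the sources used here. The bulk table was not used, since its 8 value columns match no sample label. The 8 genes, the pathway list and the cell type markers were chosen with earlier results of these data known. UMIs were summed per class and given as CPM. Levels have exact Poisson, shares exact Clopper-Pearson and ratios exact conditional binomial 95% intervals, which cover counting error only. The floor for a count of 0 was 3 counts. A ratio was called at 2-fold, among genes with 50 UMIs over both classes.

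Clustering used scanpy 1.11.5 and leidenalg 0.10.2 with 2000 variable genes, 30 principal components, 15 neighbours, resolution 1 and seed 1. Scrublet marked 89 barcodes as doublets, which were kept and left out in an alternative. Other tools were Python 3.11.15, numpy 2.4.6, scipy 1.17.1 and pandas 2.3.3. The interval functions were tested on simulated data. Genes named were all 8 members, pathway genes with 100 UMIs and a 2-fold ratio (at most 15 by UMI count), the 3 genes most like Vegfa, Vegfb and each receptor with 100 UMIs, and leading cluster genes. Other genes were named after their values were seen. With 1 library no p-value is given.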

Additional observations from a re-analysis of the deposited data

Results flagged for a closer look

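Barcodes above the mitochondrial limit of 15% were outside every comparison between classes, and 4 members were counted there above the limit that a count of 0 allows (5.35 CPM of non-mitochondrial UMIs). There were 519 such barcodes, with a median of 1095 UMIs. Vegfa had 54 UMIs in them, or 96.3 CPM (72.3 to 125.7), against 32.9 in kept tumour-like cells and 13.9 in macrophages on the same scale. Vegfb was at 23.2 (12.3 to 39.6) and Flt1 at 19.6 (9.79 to 35.1, 11 UMIs), against 34.1 and 6.13 in tumour-like cells. Nrp1 was at 7.13 (1.94 to 18.3, 4 UMIs). In the 264 of these barcodes that met the tumour-like gene sums, Vegfa was at 96.6 (67.3 to 134.3), 4.34-fold its level in tumour-like barcodes with up to 2.5% mitochondrial UMIs (2.81 to 6.59). Vegfb in the same barcodes was 1.06-fold its own level in that range (0.513 to 1.99). On the same measure Flt1 was 3.20-fold (1.23 to 7.46, 8 UMIs) and Nrp1 5.03-fold (1.08 to 19.8, 4 UMIs). Kdr was 2.93-fold (0.511 to 11.8, 3 UMIs) and Nrp2 0.587-fold (0.0139 to 3.81, 1 UMI). What the mitochondrial share reflects in these barcodes was not tested.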

How the results depend on the processing

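Under 11 alternatives of cell rule, depth, doublets, averaging, denominator and free RNA, the ratio of tumour-like cells over macrophages ran from 2.08 to 3.38 for Vegfa, 2.60 to 3.64 for Vegfb, 0.0336 to 0.0412 for Nrp1 and 0.0738 to 0.104 for Nrp2, each within the main 95% interval. The Flt1 ratio ran from 8.09 to 20.1, and the Kdr ratio at the floor of 3 counts from 1.64 to 2.28 over 8 of them. None of the 11 alternatives matched the classes by mitochondrial share. The alternatives that kept only cells in clusters of their own class, or left out the macrophages of the S100a9 cluster, were chosen after seeing the data. Without a filter beyond 1 UMI, 7528 genes were 2-fold higher in tumour-like cells and 2669 in macrophages, and against the median gene 2071 were higher in macrophages. Thinning to 1000 UMIs moved the share of tumour-like cells to 2.71% for Vegfa, 2.63% for Vegfb, 0.582% for Nrp1 and 0.332% for Nrp2, and of macrophages to 1.16% for Vegfb, 12.2% for Nrp1 and 2.74% for Nrp2, by construction, since fewer UMIs per cell were counted. At Leiden resolution 2 the highest tumour-like cluster reached 47.1 CPM for Vegfa and 19.0 CPM for Flt1, in smaller clusters. No paired analysis was possible because the columns of the bulk table carry no label or replicate number of the vehicle and deferiprone samples. For the same reason the planned edgeR fit and its DESeq2, no-filter, leave-out and block alternatives were not run. Members with few UMIs (Vegfc, Pgf, Kdr and Flt1 in macrophages) are limited by depth.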
